A study of Mus musculus with 6 samples.

Results

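The platelet-derived growth factor (PDGF) receptors and ligands were followed in NCU10K cells, an immortalised mouse neural crest cell line, after knockdown of the ubiquitin ligase gene Nedd4. The set holds 7 genes, taken by symbol: the receptor genes Pdgfra and Pdgfrb, the receptor-like gene Pdgfrl and the ligand genes Pdgfa, Pdgfb, Pdgfc and Pdgfd. These are 7 of 19933 genes with a probeset of their own among 28440 probesets on the array, and each of the 7 was measured by 1 probeset. Cells in medium with 10% foetal calf serum were transfected with control siRNA, a low GC sequence, or with Nedd4 siRNA, and total RNA was taken after 48 h. Each group had 3 biological replicates with 1 Affymetrix mouse gene array each, made from 300 ng of RNA. A single Nedd4 siRNA sequence was used and the arrays hold no rescue, so loss of Nedd4 and other effects of that siRNA cannot be told apart. NCU10K is a single line, and in bulk RNA fewer cells of a type and less RNA per cell cannot be told apart either.

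PDGFs are secreted dimers that bring a pair of receptor tyrosine kinases together at the cell surface. The α receptor binds PDGF-A, -B and -C chains, and the β receptor binds mainly PDGF-B and -D. In the embryo the α receptor is known for its role in cranial neural crest and its mesenchyme, and the β receptor for its role in pericytes and vascular smooth muscle. PDGF-A and -B are cut by furin-like convertases inside the cell. PDGF-C and -D leave the cell in a latent form with a CUB domain, which tissue plasminogen activator removes from PDGF-C and urokinase from PDGF-D. Serum is known to carry PDGF from platelets; PDGF protein was not measured here.

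Values are the authors' log2 expression values, on which a step of 1 is a doubling. Array medians lay between 6.28 and 6.35, and correlations between arrays of a group were 0.994 or higher. Nedd4 itself read 12.24, 12.35 and 12.34 in control siRNA replicates 1 to 3, and 10.45, 10.94 and 10.68 in Nedd4 siRNA replicates 1 to 3. The log2 change was −1.62 (SE 0.12, limma adjusted p = 3.16e-06). The groups were compared with limma over all probesets, with Benjamini-Hochberg adjustment and a threshold of 0.05. The table holds no detection call, so the 95th percentile of 1210 probesets for olfactory and vomeronasal receptor genes, 5.95, was taken as a background limit.

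After Nedd4 knockdown both PDGF receptor genes and the ligand gene Pdgfc rose, the ligand gene Pdgfb fell, and Pdgfa, Pdgfd and Pdgfrl did not pass the test. Of the 7 genes 4 were called, 3 higher and 1 lower, where 18.7% of all 19933 genes were called (9.62% higher and 9.13% lower). With so few genes these shares are a description. Of the 7 genes 6 lay above the background limit, and Pdgfd did not; of all 11531 genes above that limit, 31.2% were called. The groups did not overlap for 6 of the 7 genes, 4 higher and 2 lower, where this held for 31.7% of all genes. Of the 2 lower, Pdgfd lay below the background limit on every array. The median log2 fold change of the 7 was 0.23, beside −0.02 over all genes. The 4 calls were also made by each of the 16 other fits tried, with every array left out in turn and with the methods' t-test, which called 9.05% of all genes, among them. None of the 4 reached a log2 change of 1 in size, so 0 were called where that was required as well.

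**Figure D1:**
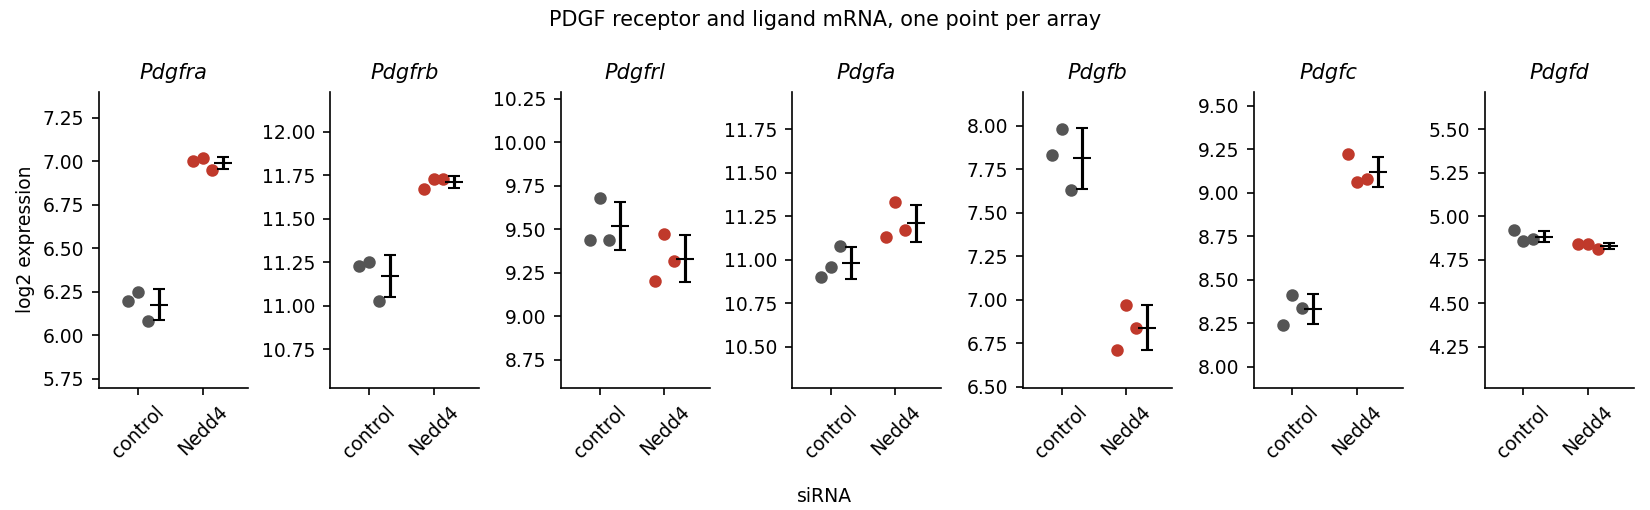
Log2 expression of the 7 PDGF genes in 3 control siRNA arrays (grey) and 3 Nedd4 siRNA arrays (red), with the mean ± SD (n = 3 arrays) beside each group. The panels share the same span of log2 units around different levels; the groups lie far apart for Pdgfra, Pdgfrb, Pdgfb and Pdgfc and overlap for Pdgfrl.

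Pdgfra, which encodes the α receptor, read 6.20, 6.25 and 6.08 with control siRNA and 7.0, 7.02 and 6.95 with Nedd4 siRNA. Every Nedd4 siRNA array lay above every control array, and the means were 6.18 ± 0.087 and 6.99 ± 0.036 (SD, n = 3 arrays each). This is a 1.76-fold rise, or 0.81 on the log2 scale (SE 0.087, 95% interval 0.62 to 1.00, limma adjusted p = 4.98e-05). The control values lay above the background limit of 5.95 but below the 99th percentile of the same background probesets, 6.46, which the Nedd4 siRNA values exceeded. Among all genes, 97.4% changed by less in size.

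Pdgfrb, the β receptor gene, read 11.23, 11.25 and 11.03 in control arrays and 11.67, 11.73 and 11.73 in Nedd4 siRNA arrays. The groups did not overlap, and the SD was 0.12 in controls and 0.035 after knockdown (n = 3 arrays each). Pdgfrb was well above background in all arrays. It rose 1.45-fold, or 0.54 on the log2 scale (SE 0.091, 95% interval 0.34 to 0.74, limma adjusted p = 0.00129). In each receptor gene control siRNA replicate 3 was the lowest control array. The rise of Pdgfra exceeded that of Pdgfrb by 0.27 on the log2 scale. The within-array difference of the pair was between −5.03 and −4.95 in controls and between −4.78 and −4.67 after knockdown, without overlap. An exact permutation test over arrays, two-sided, gave p = 0.1, the smallest that 3 against 3 allow (adjusted p = 0.1 over 3 pairs), so this test could not call the difference whatever its size.

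Pdgfrl encodes a secreted protein related to the PDGF receptors that has no kinase domain. It read 9.44, 9.68 and 9.44 in controls and 9.20, 9.47 and 9.32 after knockdown, so the groups overlapped. The log2 change was −0.19 (SE 0.10, 95% interval −0.41 to 0.03, adjusted p = 0.295), which did not pass limma's test. Pdgfrl is the only one of the 7 genes whose groups overlapped.

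Among the ligands that the convertases cut, Pdgfb, a ligand of both receptors, read 7.83, 7.98 and 7.63 in controls and 6.71, 6.97 and 6.84 after knockdown. All 3 Nedd4 siRNA arrays lay below all 3 controls. The fall was 1.96-fold, or −0.97 on the log2 scale (SE 0.11, 95% interval −1.21 to −0.74, limma adjusted p = 6.78e-05), and this was the largest change in size of the 7 genes. Of all genes, 98.6% changed by less in size.

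Pdgfa, whose product binds the α receptor, read 10.90, 10.96 and 11.08 in controls and 11.13, 11.33 and 11.17 after knockdown. The Nedd4 siRNA arrays lay above the controls without overlap, but the gap between the nearest arrays was smaller than the spread within each group. The log2 fold change of 0.23 (SE 0.093, 95% interval 0.03 to 0.43) had an unadjusted p of 0.0297 and an adjusted p of 0.134 from limma, and did not pass. The difference between Pdgfa and Pdgfb within arrays was 2.98 to 3.45 in controls and 4.33 to 4.42 after knockdown, an unequal change of 1.20 on the log2 scale (two-sided exact permutation test, p = 0.1, adjusted p = 0.1 over 3 pairs), which again is the smallest p this test can give and does not pass.

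Of the latent CUB-domain ligands, Pdgfc, which acts on the α receptor, read 8.24, 8.41 and 8.34 in controls and 9.22, 9.06 and 9.08 after knockdown. The groups were separated by more than their whole spread. Pdgfc rose 1.73-fold, or 0.79 on the log2 scale (SE 0.091, 95% interval 0.59 to 0.99, limma adjusted p = 8.31e-05). Pdgfd read 4.92, 4.86 and 4.87 in controls and 4.84, 4.84 and 4.81 after knockdown, below the background limit on every array. At this signal no level of Pdgfd mRNA could be told from background, and the log2 change of −0.05 (SE 0.082, adjusted p = 0.795) says nothing of its mRNA. The third of the 3 pairs, Pdgfc with Pdgfd, is therefore not described.

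**Figure D2:**
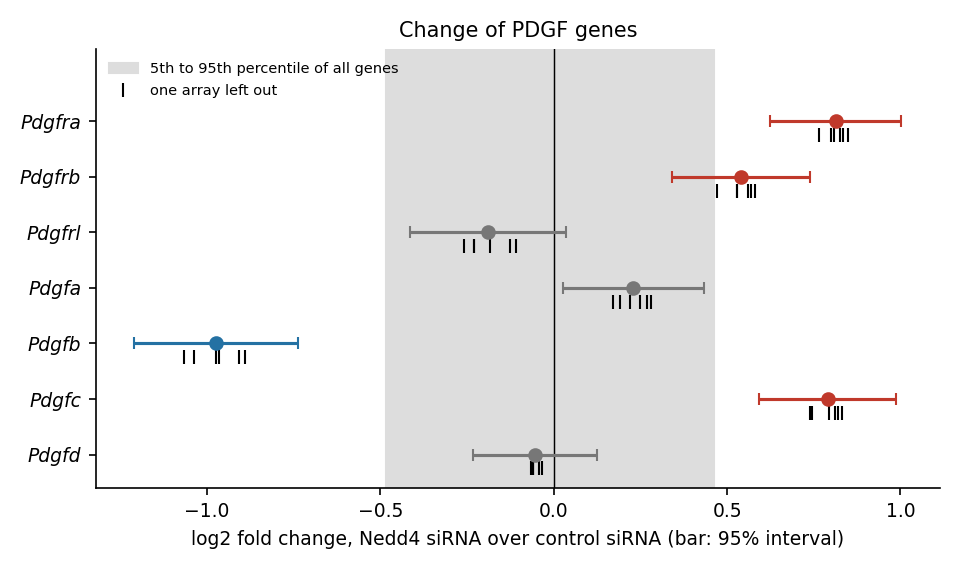
Log2 fold change of the 7 PDGF genes with its 95% interval from limma (red, higher; blue, lower; grey, not past an adjusted p of 0.05). Black ticks give the value with each array left out in turn, and the grey band spans the 5th to the 95th percentile of all 19933 genes, −0.48 to 0.46; Pdgfra, Pdgfrb, Pdgfb and Pdgfc lie outside it.

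The mRNA of Pdgfra, Pdgfrb and Pdgfc rose, and the promoter of Pdgfrb is not reported here. The promoters of Pdgfra and Pdgfc are shown from the RefSeq promoter table used here (GRCm38.p6), in which Pdgfb had no entry. Each is the 250 bases before the annotated start, on the plus strand, at chr5:75152001-75152250 and chr3:81036166-81036415. Capitals mark a match to 1 of 5 motifs searched on both strands: the GC box (GGGCGG), the TATA box (TATAAA), the AP-1 site (TGANTCA), the E-box (CANNTG) and the CArG box, the site that serum response factor binds.
Pdgfra: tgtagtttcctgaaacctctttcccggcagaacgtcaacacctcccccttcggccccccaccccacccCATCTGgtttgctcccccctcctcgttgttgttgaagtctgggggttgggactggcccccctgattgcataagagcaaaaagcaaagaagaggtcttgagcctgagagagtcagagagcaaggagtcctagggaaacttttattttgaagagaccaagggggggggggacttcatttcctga
Pdgfc: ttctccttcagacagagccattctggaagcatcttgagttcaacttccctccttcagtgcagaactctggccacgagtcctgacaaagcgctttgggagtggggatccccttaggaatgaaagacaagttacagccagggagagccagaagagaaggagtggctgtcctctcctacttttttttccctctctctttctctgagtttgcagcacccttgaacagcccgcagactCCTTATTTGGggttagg
The Pdgfc window held 1 CArG box, which begins 17 bases before the start, and none of the other motifs. Of 32851 promoters of the same length, 1.47% held a CArG box. The Pdgfra window held 1 E-box, as did 66.2% of all promoters, and no CArG box, so the pair shared none of the 5 motifs. The Pdgfa entry has 2 starts with 1 and 2 GC boxes, and 32.7% of promoters held one. The Pdgfd window held 1 TATA box, found in 12.4%. None of these 5 windows held an AP-1 site, found in 6.75%, and no matches overlapped. A match is a run of letters and not a shown binding site.

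The genes around the ligands and receptors were described from 5 lists of the PDGF pathway, with 103 genes listed and 95 measured. Of the 95, 22 were higher, 14 lower and 59 not called. That is 37.9% called, beside 18.7% of all genes and 31.2% of the genes above the background limit, where 84 of the 95 lay. The median log2 fold change over the lists was 0.03. The methods' t-test called 16 of the 95, and 15 of these were among the 36. Of the 36, 24 were called whichever array was left out.

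Among 11 genes for ligand processing and co-receptors, 3 were higher and 2 lower, or 45.5% called (18.7% of all genes, 31.2% of those above background). Plat, which encodes the tissue plasminogen activator that cuts latent PDGF-C, read 7.51, 7.66 and 7.35 in controls and 9.17, 9.10 and 8.89 after knockdown. Its arrays were separated by more than 1 log2 unit, and it rose by 1.55 log2 units (SE 0.11, limma adjusted p = 2.57e-06), the largest rise in the 5 lists. Plau, the urokinase gene, and St14, the gene of the membrane protease matriptase, were below the background limit. The convertase genes Furin (−0.38, adjusted p = 0.0128) and Pcsk6 (−0.42, adjusted p = 0.0168) fell, and Nrp2, a neuropilin co-receptor gene, rose (0.34, adjusted p = 0.0166). Nrp1, the remaining call, had 0.28 (adjusted p = 0.0412) and was not called with any array left out. Without Nedd4 siRNA replicate 1, or without replicate 3, 1 of the 5 calls was left in the list, and 3 without control siRNA replicate 1 or 2; Plat was called in each case. With the methods' t-test neither Furin (adjusted p = 0.0742) nor Pcsk6 (adjusted p = 0.151) passed, and Pcsk6 was called in 2 of the 6 fits with an array left out.

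Among 30 genes for adaptors and enzymes that bind the activated receptor, 6 were higher and 3 lower. That is 30% called, close to the 31.2% of all genes above background, where 26 of the 30 lay. Grb10, an adaptor gene whose product binds several receptor tyrosine kinases and NEDD4 itself, rose by 0.63 log2 units (SE 0.084, limma adjusted p = 0.000242). It read 6.47, 6.52 and 6.5 in controls and 7.15, 7.18 and 7.06 after knockdown, so the groups were well apart. Shf, an adaptor gene (0.61, adjusted p = 0.00155), and Pik3r1, the regulatory subunit gene of PI3-kinase (0.51, adjusted p = 0.00222), rose too. Crkl, another adaptor gene, fell (−0.44, adjusted p = 0.0035). Without Nedd4 siRNA replicate 1, 5 of the list were called, and 3 by the methods' t-test, which did not call Shf (adjusted p = 0.0683).

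Of 12 measured genes of the RAS-MAPK, AKT and STAT branches, all above background, 4 were higher and 3 lower, or 58.3% called, beside 31.2% of all genes above background. Stat6 (0.56, adjusted p = 0.000584), the RAF kinase gene Braf (0.67, adjusted p = 0.00101) and Pdpk1, the kinase gene upstream of AKT (0.51, adjusted p = 0.00259), rose. The RAS gene Nras fell (−0.45, adjusted p = 0.00207). In the methods' t-test 4 of the 12 passed, and neither Braf (adjusted p = 0.0663) nor Pdpk1 (adjusted p = 0.052). Another 7 genes of this list were not analysed here.

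Of 18 measured attenuators of receptor signalling 14 lay above background, and 1 was higher and 2 lower. That is 16.7% called, close to the 18.7% of all genes and below the 31.2% of those above background. Ptprj, which encodes a receptor phosphatase that acts on the β receptor, read 10.12, 10.13 and 10.23 in controls and 9.50, 9.48 and 9.46 after knockdown. Its log2 change was −0.68 (SE 0.084, limma adjusted p = 0.000142), and the spread within each group was small beside the gap. Acp1, the low molecular weight phosphatase gene, also fell (−0.50, adjusted p = 0.00545), and the feedback inhibitor gene Spry1 rose (0.37, adjusted p = 0.0358). Spry1 was called in 1 of the 6 fits with an array left out, and the methods' t-test called neither it (adjusted p = 0.202) nor Acp1 (adjusted p = 0.0964). The ubiquitin ligase genes Cbl (0.28, adjusted p = 0.0872) and Cblb (−0.14, adjusted p = 0.543), named here after their values were seen, did not pass.

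Early genes that PDGF is known to induce in fibroblasts went in both directions, with 8 of 24 higher, 4 lower and 12 not called. That is 50% called, beside 31.2% of all genes above background, where all 24 lay. The largest changes in size were falls. Ccl7, a chemokine gene, read 12.37, 12.34 and 12.33 in controls and 11.05, 11.14 and 11.10 after knockdown, a log2 change of −1.25 (SE 0.083, limma adjusted p = 1.72e-06). The nuclear receptor gene Nr4a1 fell as well (−1.12, SE 0.11, adjusted p = 2.56e-05). The transcription factor genes Egr2 (0.90, adjusted p = 0.000288) and Klf10 (0.61, adjusted p = 0.000341) rose. Myc (−0.01) and Jun (−0.10), named after their values were seen, were not called. The methods' t-test called 4 of the 24, with an adjusted p of 0.057 for Egr2.

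**Figure D3:**
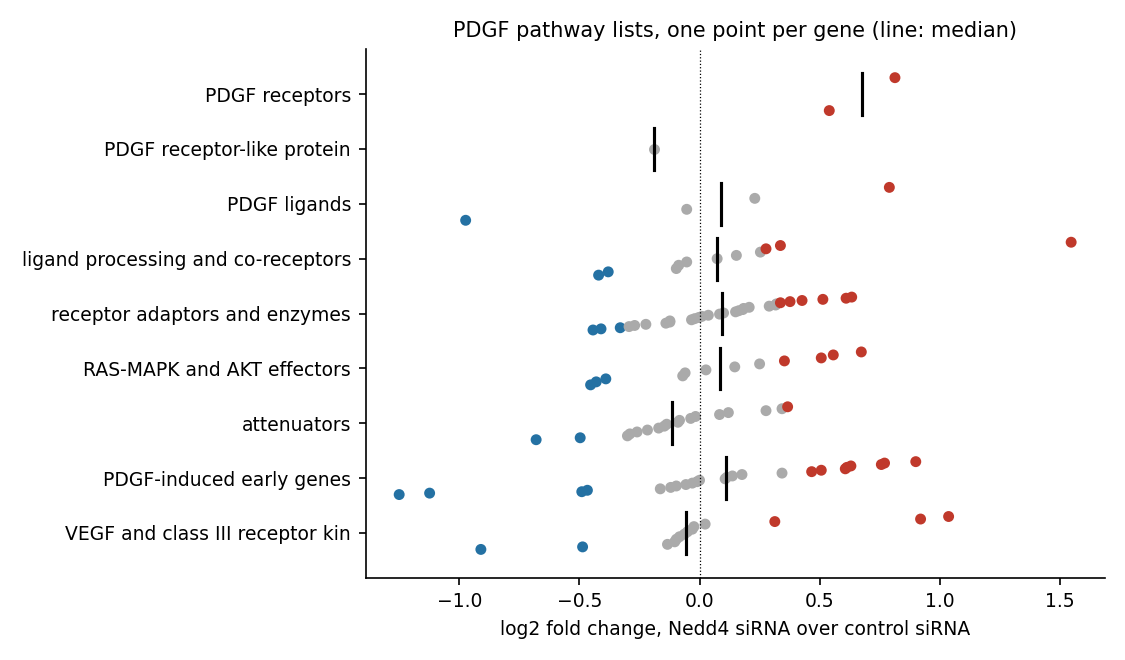
Log2 fold change of every measured gene of the PDGF lists and of the structural kin (red, higher; blue, lower; grey, not past an adjusted p of 0.05 from limma), with a black line at each list median. Medians lie between −0.11 and 0.11 for the 5 pathway lists and calls fall on each side of 0 in every one of them; the highest point is Plat at 1.55.

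PDGFs and VEGFs share a fold, and the PDGF receptors share their class with Kit, Csf1r and Flt3. None of 6 kin receptor genes, which also include Kdr, Flt1 and Flt4, lay above the background limit, with means between 4.94 and 5.67, and none was called (lowest adjusted p = 0.566 from limma). Pdgfra and Pdgfrb lay above it. Of 8 kin ligand genes 6 lay above the limit, and 3 were higher and 2 lower, or 62.5% called, beside 18.7% of all genes and 31.2% of those above background. Csf1, the ligand gene of the Csf1r receptor, rose (1.04, SE 0.088, adjusted p = 9.66e-06), from 7.20, 7.10 and 7.09 to 8.26, 8.09 and 8.15. Vegfd rose (0.92, adjusted p = 0.000838), and Vegfb (−0.91, adjusted p = 0.000246) and Kitl (−0.49, adjusted p = 0.00214) fell. The methods' t-test called neither Vegfb (adjusted p = 0.0541) nor Vegfd (adjusted p = 0.0954).

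**Figure D4:**
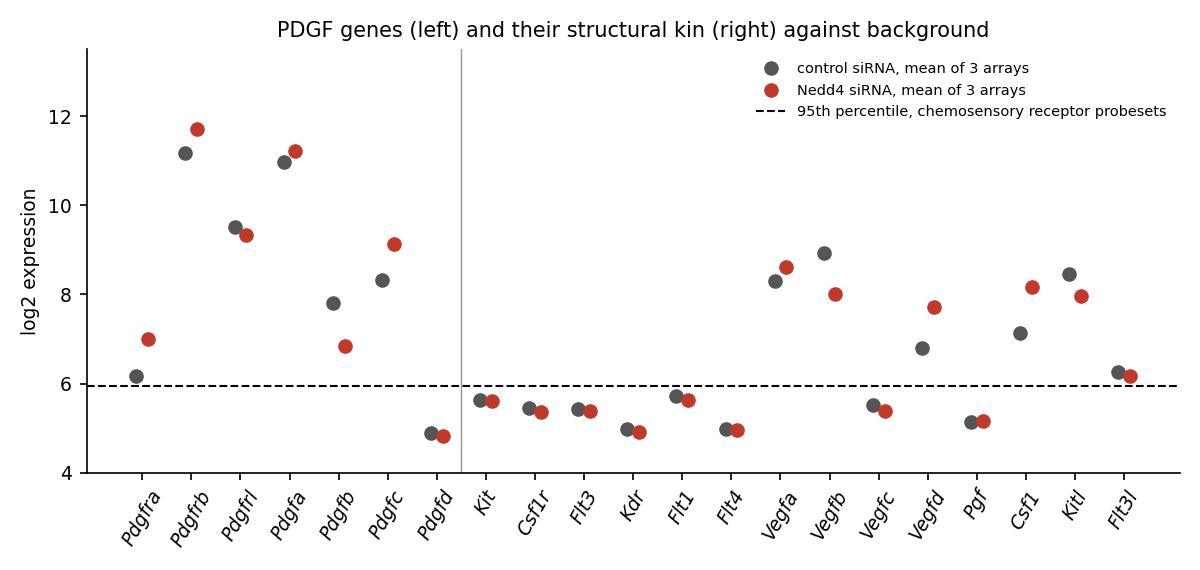
Mean log2 expression of the PDGF genes (left of the line) and of the VEGF and class III receptor kin (right) with control siRNA (grey) and Nedd4 siRNA (red), each the mean of 3 arrays, against the background limit of 5.95 (dashed). Heights of different genes are not comparable, since they come from different probesets; Pdgfd and the 6 kin receptor genes lie below the limit in each group.

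Markers were read beside these values, since PDGF receptors mark several cell types. The neural crest marker Sox10 was above the limit and fell (−0.43, SE 0.098, adjusted p = 0.00864). Of 14 measured neural crest and glial markers 12 lay above the limit, 6 were lower and 2 higher. That is 57.1% called, beside 18.7% of all genes and 31.2% of those above background. Of the 14, 4 were called by the methods' t-test, and Sox10 was not (adjusted p = 0.088). Erbb3 (−1.14, adjusted p = 2.93e-05), Foxd3 (−0.54, adjusted p = 0.00136) and Tfap2a (−0.51, adjusted p = 0.00164) fell, and Sox9 rose (0.66, adjusted p = 0.000337). The log2 summed level of that list was 13.96 to 14.00 in controls and 13.60 to 13.72 after knockdown, without overlap. Of 15 pericyte, smooth muscle and fibroblast markers 5 lay above the limit and 2 passed the test. That is 13.3% called, beside 18.7% of all genes and 31.2% of those above background. The 2 that passed, both among the 5 above the limit, were Dcn (0.58, adjusted p = 0.000439) and Des (0.36, adjusted p = 0.0217). Both were higher, and the methods' t-test did not call Des (adjusted p = 0.108). Acta2 (0.22, adjusted p = 0.258) and Cspg4 (−0.01, adjusted p = 0.964) did not pass, and Rgs5 was below the limit. The log2 summed level of that list was 10.33 to 10.36 in controls and 10.44 to 10.57 after knockdown, also without overlap. This sum includes the markers below the limit, and its brightest marker, Acta2, did not pass. Without control siRNA replicate 3, Nedd4 siRNA replicate 1 or Nedd4 siRNA replicate 3, 1 marker of the list was called. The part of either list in the PDGF values was not tested.

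Markers of other cells were mostly below the background limit. None of 8 oligodendrocyte precursor markers (Olig2 and Tnr with the smallest p) and none of 7 endothelial markers (Pecam1 and Tek among them) lay above the limit, and none of these was called. The log2 summed levels were 8.51 to 8.69 and 8.48 to 8.54 for the former in control and Nedd4 siRNA arrays, and 8.11 to 8.32 and 8.21 to 8.32 for the latter. Of 7 macrophage markers 2, Lyz2 and Cx3cr1, lay above it (named after their values were seen) and none was called, while Ptprc, Aif1 and Tyrobp were below it; the summed level was 8.62 to 8.73 and 8.59 to 8.66. Of 4 measured megakaryocyte markers 1 lay above the limit, the platelet chemokine gene Ppbp, which fell (−0.63, adjusted p = 0.000515). It was the only call, or 25%, beside 18.7% of all genes and 31.2% of those above background. Itga2b, below the limit, had a log2 fold change of 0.19 (adjusted p = 0.311). The log2 summed level of this list was 8.95 to 9.12 in control and 8.58 to 8.67 in Nedd4 siRNA arrays. Since Ppbp was the only measured marker above the limit, this sum largely repeats the fall of Ppbp.

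The genes most like a PDGF gene over the 6 arrays were ranked by Pearson's r among 11530 other genes above background. For Pdgfra they were Rpe (r = 0.999), Tbc1d9b (0.999) and Insig2 (0.999), with log2 fold changes of 0.72, 0.37 and 0.30. For Pdgfrb they were Tnks (0.999), Abhd5 (0.999) and Cenpq (0.998), with 0.38, 0.87 and 0.46. For Pdgfb they were Map2k1 (0.999), Sidt2 (0.999) and Wdr5 (0.999), with −0.43, −0.66 and −0.80. These likenesses carry no test: with 2 groups of 3 arrays, 997, 708 and 765 genes reached an r above 0.95 with Pdgfra, Pdgfrb and Pdgfb.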

How the data were processed

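RNA of 3 control siRNA and 3 Nedd4 siRNA cultures was measured, 1 Affymetrix Mouse Gene array each, with groups and repeat numbers from the sample titles. The authors used Partek (6.5 per the submitters' processing notes), where each probeset's value is an average of its probes, adjusted for their GC content, after background was removed as in RMA. They deposited log2 expression values to 2 decimals for 28440 probesets. Signal left after background subtraction can understate the changes of dim genes. Scans were not used here. A single gene symbol was given for 21780 probesets, more than 1 for 1618, and no symbol for 5042. A gene was read from the probeset with 1 symbol and the highest mean over all arrays. limma 3.58.1 in R 4.3.3 (lmFit, eBayes, no covariate) was fitted to all probesets and tested on simulated data; the methods name an ANOVA, run here as the methods' t-test. Counts, exact permutation tests and figures used Python 3.11.15, NumPy 2.4.6, pandas 2.3.3, SciPy 1.17.1 and Matplotlib 3.10.9. Precision is set by the 3 arrays a group.

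The 7 genes and the lists were chosen with earlier results of these data known. Named genes are the 7, Nedd4, up to 4 called genes with the smallest p per list (2 where none passes), the defining markers and the 3 genes most alike to Pdgfra, Pdgfrb and Pdgfb; others are said to be named after their values were seen, as are Nrp1, Plau, St14 and the kin receptor genes. Planned protein features were not analysed here, and the choice of promoter windows followed the table, with Pdgfrb left out. Other settings tried were quantile normalization or median centring of the arrays, weighting of arrays, a block for the repeat number, a trended robust prior, and the methods' t-test. Probesets were also restricted to those with 1 symbol or to those brighter than the lowest 25% or 50%, and a gene was also read as the mean over its probesets. Calls were repeated at an adjusted p below 0.01 and with a log2 change of 1 or more, at other background percentiles, and without each array.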

Additional observations from a re-analysis of the deposited data

How the results depend on the processing

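All 4 calls among the PDGF genes and the 3 genes not called stayed as they were under each of the 16 other fits (14 for Pdgfd, which the dimmest 25% and 50% of probesets include), and at an adjusted p under 0.01. The log2 fold changes ranged from 0.77 to 0.85 for Pdgfra, 0.47 to 0.58 for Pdgfrb, −1.06 to −0.89 for Pdgfb and 0.74 to 0.84 for Pdgfc, with a highest adjusted p of 0.0349. With a log2 fold change of at least 1 required, 0 of the 7 genes and 3 of the pathway genes were called. The methods' t-test called 16 of the 95 pathway genes in place of 36, and 1804 of all genes in place of 3737. With each array left out, 4 PDGF genes and 24 to 34 pathway genes were called; without Nedd4 siRNA replicate 1 the count over all genes was 2418. The unequal changes within pairs ranged from 0.25 to 0.30 for the receptors and 1.11 to 1.34 for Pdgfa and Pdgfb with each array left out. The methods' t-test called 4 in place of 8 neural crest markers and 4 in place of 7 effectors. Array weights called 6 attenuators in place of 3. Whether repeat numbers pair the arrays was not tested. Deviations of same-numbered arrays correlated at −0.01, 0.47 and −0.01, and those of differently numbered arrays at −0.43 to 0.42. With the replicate block 4 PDGF genes and 39 pathway genes were called, and no PDGF call changed. At the 90th or 99th percentile of background 6 PDGF genes lay above the limit by their mean over all arrays. For Pdgfra at the 99th percentile, 6.46, this mean of 6.58 rested on the Nedd4 siRNA arrays, since its control mean was 6.18. Dim signal limits Pdgfd, which had no measurable level, and Pdgfra, whose control values were near background.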

Other observations

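The nearest measured protein-coding gene on each side of the 7 PDGF genes in the RefSeq annotation, 14 in all, was read after the data were seen. Of these 7 lay above the background limit. In limma's test 13 did not pass (lowest adjusted p = 0.0927) and 1 did, where 18.7% of all genes and 31.2% of those above the limit passed. The call was Mtus1, a microtubule-associated tumour suppressor gene beside Pdgfrl, which fell (−0.39, SE 0.084, adjusted p = 0.00644). The receptor genes lie next to their own kin. Kit, beside Pdgfra, had a log2 fold change of −0.03 (adjusted p = 0.929), and Csf1r, beside Pdgfrb, of −0.10 (adjusted p = 0.566), with both below the background limit. Beside Pdgfb, Cbx7 had −0.16 (adjusted p = 0.341) and Syngr1 0.05 (adjusted p = 0.869), and beside Pdgfc, Glrb had 0.04 (adjusted p = 0.878) and Ctso −0.18 (adjusted p = 0.35), all 4 of them above the limit.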
